A study of Rattus norvegicus with 10 samples.

Results

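The 8 genes described here belong to cholesterol synthesis and its feedback control and were followed in the livers of irradiated rats: Hmgcs1, Idi1, Fdps, Fdft1, Sqle, Lss and Cyp51, which encode enzymes of the pathway, and Insig1, which encodes a sterol-regulated protein of the endoplasmic reticulum. They were chosen by symbol, with probes matched through RefSeq accessions only, and all 8 of 8 were measured, among 13426 genes that could be named on the array. The 10 livers came from male Wistar rats in 3 groups, taken at 24 h. The control group (n = 3) was neither irradiated nor given the drug. The TBI group (n = 3) received total-body irradiation of 6.5 Gy from a 60Co source, as the labels give it (the doses named in the methods of the study differ from this), and the MASM + TBI group (n = 4) received the same exposure after MASM, a derivative of the plant alkaloid matrine, given by stomach tube at 30 mg/kg/day for 3 days. No livers of rats given MASM without irradiation were analysed here. Each liver was hybridised alone to a one-colour array, and all values below are log2 signals after quantile normalization, so that a difference of 1 is a 2-fold change in signal.

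Hepatocytes build cholesterol from acetyl-CoA through mevalonate, isoprenoid units, squalene and lanosterol. When sterol in the endoplasmic reticulum falls, the escort protein SCAP carries the transcription factor SREBP-2 to the Golgi, where it is cut and released to switch on nearly every gene of the pathway, while INSIG1, itself a target, holds SCAP back when sterol is plentiful. The same factor drives uptake of LDL from blood, and the liver is the main organ for both.

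The sequence before the start of each gene is shown for the members whose promoters carry 1 or more CCAAT boxes, the site of the factor NF-Y, which is known to act beside SREBP. RefSeq promoters (build GRCr8) were found for 6 of the 8 genes; Sqle and Fdft1 had no entry. The windows hold the 250 bases before the start that the table uses, which for Hmgcs1 and Insig1 is not the outer end of the annotated gene, 5′ to 3′ on the strand of the gene, with each CCAAT, or ATTGG where it lies on the opposite strand, in capitals.
Hmgcs1, chr2:53382054-53382303, + strand: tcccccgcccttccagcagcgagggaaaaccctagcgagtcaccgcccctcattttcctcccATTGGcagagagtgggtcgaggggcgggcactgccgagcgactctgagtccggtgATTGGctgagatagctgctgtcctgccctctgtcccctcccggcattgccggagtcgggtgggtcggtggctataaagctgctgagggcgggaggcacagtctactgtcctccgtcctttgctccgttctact
Idi1, chr17:66547525-66547774, - strand: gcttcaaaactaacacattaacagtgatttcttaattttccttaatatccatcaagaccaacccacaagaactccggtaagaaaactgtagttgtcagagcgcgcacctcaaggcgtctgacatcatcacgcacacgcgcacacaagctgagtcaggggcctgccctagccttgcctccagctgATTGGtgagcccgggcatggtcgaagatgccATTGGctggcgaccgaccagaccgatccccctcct
Fdps, chr2:176804817-176805066, - strand: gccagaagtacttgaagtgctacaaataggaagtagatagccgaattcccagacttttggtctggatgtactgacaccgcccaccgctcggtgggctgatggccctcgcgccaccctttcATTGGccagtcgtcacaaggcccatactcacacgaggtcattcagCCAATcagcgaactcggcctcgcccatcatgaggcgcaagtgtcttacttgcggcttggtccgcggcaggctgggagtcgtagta
Lss, chr20:12118231-12118480, - strand: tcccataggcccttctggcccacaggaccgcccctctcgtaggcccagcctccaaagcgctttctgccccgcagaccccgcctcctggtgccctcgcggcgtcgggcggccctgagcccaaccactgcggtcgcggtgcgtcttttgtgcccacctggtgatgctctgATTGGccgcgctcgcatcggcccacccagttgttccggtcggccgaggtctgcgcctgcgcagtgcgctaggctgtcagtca
Insig1, chr4:8057770-8058019, - strand: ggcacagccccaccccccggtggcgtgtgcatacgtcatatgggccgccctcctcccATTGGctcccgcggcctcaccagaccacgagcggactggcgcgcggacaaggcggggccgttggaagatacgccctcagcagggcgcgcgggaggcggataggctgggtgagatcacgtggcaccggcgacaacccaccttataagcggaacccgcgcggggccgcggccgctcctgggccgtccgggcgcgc
CCAAT on either strand was present in 5 of the 6 windows and absent from that of Cyp51, against 11385 of 33469 rat promoters of the same length (34%). Hmgcs1, Idi1 and Fdps each held 2, and 9.42% of all promoters held 2 or more. Of the other synthesis enzymes, 9 of 11 with a sequence held CCAAT. The GC box GGGCGG, on either strand, was in 5 of the 6 windows and in 30.5% of all promoters. The palindrome CACGTG was in that of Insig1 alone and in 5.59% of all. The letters TCACNCCAC on either strand, a form of the sterol regulatory element, were in 0 of the 6 windows and in 0.974% of all promoters. No motif searched is contained in another, and the matches describe the sequence only.

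None of the 8 genes passed the test across all probes in any comparison (limma, adjusted p under 0.05), while their levels lay above control in most irradiated rats, most widely in MASM + TBI. With MASM + TBI, 7 of the 8 genes, all but Fdft1, were higher in each of the 4 rats than in any control rat, and the median difference over the 8 genes was 1.18, against -0.0007 over all genes. With TBI alone the median difference was 0.51, and 2 genes, Lss and Insig1, did not overlap control. That median rested on single rats: it was 0.96 without the TBI rat 1 and 0.22 without the TBI rat 3, whereas with 1 rat left out the median in MASM + TBI ran from 0.99 to 1.31. Over all genes, 10.2% were higher without overlap in MASM + TBI than in control and 13.0% in TBI than in control. Adjusted p under 0.05 with a higher signal was reached by 1.24% of genes in MASM + TBI against control, by 2.97% in TBI against control and by 0.387% in MASM + TBI against TBI; with a lower signal the shares were 2.46, 3.66 and 0.693%, respectively. Under the rule of the study, an unadjusted p under 0.05 with a change of at least 1.5-fold, 7 of 8 members were higher in MASM + TBI against control, where 3.50% of all genes were, and 2 of 8 in TBI against control, where 7.54% were. Between MASM + TBI and TBI that rule was met by 0 of 8 members, against 1.73% of all genes. Unadjusted p alone, and the methods' t-test at the rule of the study, each gave 2 of 8 members with TBI, 7 of 8 with MASM + TBI and 0 of 8 between the irradiated groups; over all genes, unadjusted p alone gave 12.6, 9.04 and 7.11%, and the methods' t-test 3.75, 2.52 and 1.09%.

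The microarray spots that were well above background made up 57.2 to 59.9% of each control array, 64.1 to 70.1% of each TBI array and 56.2 to 60.2% of each MASM + TBI array. The 14 probes matched to the 8 genes were well above background on all 10 arrays. The TBI arrays shared a slide that held no other group, so TBI and that slide cannot be told apart; the controls and the MASM + TBI rat 3 shared another slide, and the other MASM + TBI rats lay on a slide of their own. The 6 hepatocyte markers were well above background on all arrays, with a mean log2 signal of 17.5 to 17.8. The mean log2 signal of 4 T lymphocyte markers was 5.48 to 5.83 in control, 3.58 to 4.32 in TBI and 3.94 to 4.57 in MASM + TBI; 2 of the 4, Cd2 and Cd3e, passed the test with TBI and 1, Cd3e, with MASM + TBI, and Cd3e was not well above background on any array. Of 2 B lymphocyte markers measured, 1 passed the test, with a lower signal both with TBI and with MASM + TBI. The 5 Kupffer cell markers averaged 10.9 to 11.5 in control, 11.2 to 12.1 in TBI and 10.8 to 11.2 in MASM + TBI. Among the other marker lists 1 gene passed the test: Lrat, a marker of stellate cells, fell by 0.62 with TBI (adjusted p = 0.0116), and fell by 0.60 with MASM + TBI (adjusted p = 0.0147). The part of these cells and of the slides in the results below was not tested, and in whole liver fewer cells of a type cannot be told apart from less RNA per cell.

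Hmgcs1 encodes the cytosolic synthase that makes HMG-CoA, the substrate from which mevalonate is formed. Its log2 signal was 13.67, 12.94 and 13.42 in the control rats, 13.07, 13.99 and 14.01 in the TBI rats and 14.76, 13.72, 14.92 and 14.22 in the MASM + TBI rats. The 4 MASM + TBI values lay above the controls, the lowest of them by little, while the TBI rat 1 lay within the control range. The difference from control was 1.06 with MASM + TBI (95% CI 0.25 to 1.86, adjusted p = 0.166) and 0.34 with TBI (95% CI -0.51 to 1.20, adjusted p = 0.616).

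Idi1 encodes the isomerase that interconverts the activated isoprene units. Its log2 signal was 12.02, 11.59 and 11.68 in control, 11.61, 12.87 and 12.84 in TBI and 13.59, 12.61, 13.63 and 12.87 in MASM + TBI. Here every MASM + TBI rat stood clear of the controls, the TBI rats 2 and 3 did as well, and the TBI rat 1 did not. The difference from control was 1.41 with MASM + TBI (95% CI 0.57 to 2.25, 2.66-fold, adjusted p = 0.0884) and 0.68 with TBI (95% CI -0.22 to 1.58, adjusted p = 0.341).

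Fdps encodes farnesyl diphosphate synthase, whose product is the branch point between sterols and the other isoprenoids. The log2 signal of Fdps was 14.18, 13.97 and 14.31 in control, 13.86, 14.71 and 14.93 in TBI and 15.14, 14.47, 15.33 and 14.66 in MASM + TBI. The TBI rat 1 was below every control and the other TBI rats were above them. The difference from control was 0.75 with MASM + TBI (95% CI 0.08 to 1.42, adjusted p = 0.24) and 0.35 with TBI (95% CI -0.37 to 1.06, adjusted p = 0.542).

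Fdft1, squalene synthase, commits farnesyl diphosphate to sterols and showed the smallest differences of the 8 genes from control. Its log2 signal was 9.58, 9.37 and 9.77 in control, 8.95, 9.78 and 9.69 in TBI and 10.08, 9.64, 10.36 and 9.68 in MASM + TBI. The groups overlapped, since the MASM + TBI rats 2 and 4 lay within the control range. The difference from control was 0.36 with MASM + TBI (95% CI -0.20 to 0.93, adjusted p = 0.535) and -0.10 with TBI (95% CI -0.71 to 0.51, adjusted p = 0.853). Without the TBI rat 1 the latter was 0.16, and with 1 rat left out the former ran from 0.22 to 0.47.

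Sqle encodes squalene epoxidase, which adds oxygen to squalene and is a rate-controlling step. Control rats had log2 signals of 10.85, 10.47 and 10.87, TBI rats of 10.27, 11.68 and 11.85 and MASM + TBI rats of 12.49, 11.28, 12.67 and 11.72. The TBI rats spread widely, from below every control to well above them, with an SD of 0.87 against 0.23 in control. Sqle differed from control by 1.31 with MASM + TBI (95% CI 0.28 to 2.34, 2.48-fold, adjusted p = 0.18) and 0.54 with TBI (95% CI -0.56 to 1.64, adjusted p = 0.538).

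Lss encodes lanosterol synthase, which folds oxidosqualene into the first sterol. Its log2 signal was 9.34, 8.45 and 8.53 in control, 9.75, 10.65 and 10.00 in TBI and 10.50, 9.51, 10.67 and 10.54 in MASM + TBI. Each of the 7 irradiated rats was above each control, and the irradiated groups overlapped. Lss differed from control by 1.53 with MASM + TBI (95% CI 0.72 to 2.34, 2.89-fold, adjusted p = 0.0623) and 1.36 with TBI (95% CI 0.49 to 2.23, 2.57-fold, adjusted p = 0.0775).

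Cyp51 encodes the cytochrome P450 that removes a methyl group from lanosterol. The log2 signal of Cyp51 was 11.83, 11.63 and 11.73 in control, 11.44, 12.27 and 12.95 in TBI and 12.85, 12.07, 13.04 and 12.34 in MASM + TBI. The controls were tight, with an SD of 0.10, and the MASM + TBI rats were all above them. Cyp51 differed from control by 0.85 with MASM + TBI (95% CI 0.04 to 1.65, adjusted p = 0.269) and 0.49 with TBI (95% CI -0.37 to 1.35, adjusted p = 0.471).

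Insig1 was the one member with a higher mean in TBI than in MASM + TBI. Its log2 signal, on the brightest of 4 probes, was 13.10, 13.54 and 13.11 in control, 14.39, 15.28 and 15.83 in TBI and 14.90, 14.75, 15.28 and 13.56 in MASM + TBI. All 3 TBI rats stood clear of the controls, whereas the MASM + TBI rat 4 exceeded the highest control only in the second decimal. The difference from control was 1.92 with TBI (95% CI 0.82 to 3.01, 3.77-fold, adjusted p = 0.0556) and 1.37 with MASM + TBI (95% CI 0.35 to 2.39, 2.59-fold, adjusted p = 0.156). Its 3 dimmer probes gave 2.13, 2.17 and 2.16 with TBI and 1.57, 1.60 and 1.64 with MASM + TBI, none of which passed the test.

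**Figure D1:**
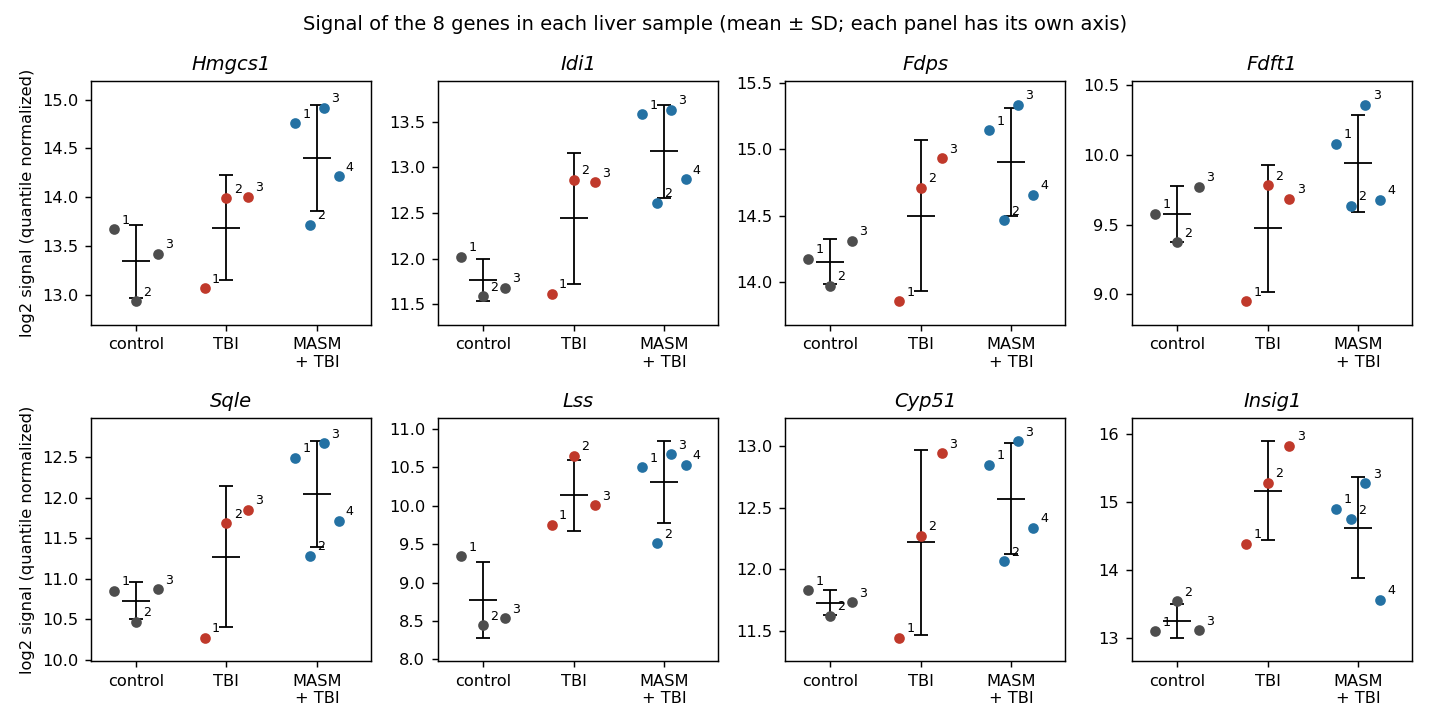
Log2 signal (vertical axes, each on its own scale) of the 8 genes in 3 control, 3 TBI and 4 MASM + TBI livers, numbered by replicate, with black bars for mean ± SD. The 4 MASM + TBI livers lie above every control for 7 of 8 genes, and TBI 1 is the lowest TBI liver in 8 of 8 panels.

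The calls of these genes depended on the adjustment and on the processing. For Lss and Insig1 in TBI against control and for Lss and Idi1 in MASM + TBI against control, some alternatives brought the adjusted p under 0.05: with dim probes left out, 2 members were called in each of these comparisons, and without the TBI rat 1 there was 1 in each, Insig1 and Idi1, respectively. Without the MASM + TBI rat 2, Lss was called in both (adjusted p = 0.0493 with TBI and 0.0337 with MASM + TBI), and without the MASM + TBI rat 4, Insig1 was called in TBI against control (adjusted p = 0.0297). Single rats also moved the sizes in TBI against control: with 1 rat left out they ran from 0.14 to 0.65 for Hmgcs1, 0.46 to 1.09 for Idi1, 0.13 to 0.67 for Fdps, 0.25 to 1.04 for Sqle and 0.13 to 0.88 for Cyp51, with the upper end of each reached without the TBI rat 1. The lower end was reached without the control rat 2 for Hmgcs1, the TBI rat 2 for Idi1 and the TBI rat 3 for the others.

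Whether MASM altered these genes in irradiated liver is addressed by the comparison of MASM + TBI with TBI, in which no member passed the test and no member was free of overlap in the higher direction, against 9.75% of all genes. Hmgcs1, Idi1 and Sqle had the widest differences, 0.71 (95% CI -0.09 to 1.52, adjusted p = 0.353), 0.73 (95% CI -0.11 to 1.58, adjusted p = 0.362) and 0.77 (95% CI -0.26 to 1.80, adjusted p = 0.436). Fdft1 differed by 0.47 (95% CI -0.10 to 1.04), Fdps by 0.40 (95% CI -0.27 to 1.07), Cyp51 by 0.35 (95% CI -0.45 to 1.16) and Lss by 0.17 (95% CI -0.64 to 0.98). Insig1 went the other way, at -0.54 (95% CI -1.56 to 0.48, adjusted p = 0.582). The intervals leave room for differences of more than 1 on the log2 scale for 6 of these genes in the higher direction. The differences also rested on the TBI rat 1: without it they were 0.40 for Hmgcs1, 0.32 for Idi1, 0.27 for Sqle, 0.20 for Fdft1, 0.08 for Fdps, -0.02 for Lss and -0.04 for Cyp51, while that of Insig1 was -0.93, and the median over the 8 genes was 0.14 in place of 0.43 (0.67 without the TBI rat 3).

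**Figure D2:**
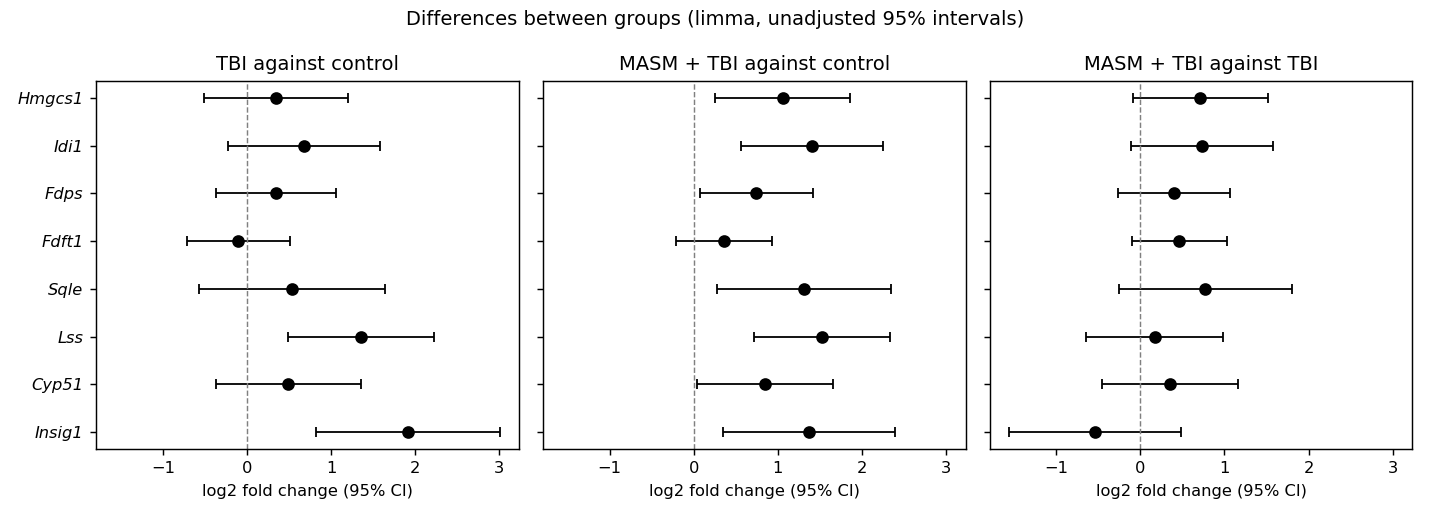
Log2 fold change (horizontal axis) of the 8 genes in 3 comparisons, with points for the limma estimate and bars for its unadjusted 95% interval. The intervals of 7 genes exclude 0 in MASM + TBI against control and those of 2 genes in TBI against control, and all 8 include 0 in MASM + TBI against TBI.

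Of the 8 members, at least 7 had the same lowest rat in each group, and in MASM + TBI all 8 had the same highest rat. The TBI rat 1 had the lowest TBI level for 8 of 8 members, whereas it was the lowest of its group for 28.5% of all genes. The MASM + TBI rat 3 had the highest level of its group for 8 of 8 members (32.4% of all genes), and the MASM + TBI rat 2 the lowest for 7 of 8 (25.4% of all genes). Insig1 was the exception, being lowest in the MASM + TBI rat 4. Among the controls, rat 2 was lowest for 7 of 8 members (38.0% of all genes). The highest rat was not shared in the other groups: in TBI it was rat 3 for 5 members and rat 2 for 3, and in control it was rat 1 for 4, rat 3 for 3 and rat 2 for 1. Of 12 other synthesis enzymes, the TBI rat 1 was lowest for 11, the MASM + TBI rat 3 highest for 12 and the MASM + TBI rat 2 lowest for 11, while the highest TBI rat was rat 2 for 6 and rat 3 for 6.

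The spread between rats of 1 group was wide in these genes. The median SD of the 8 members was 0.23 in control, 0.64 in TBI and 0.52 in MASM + TBI, against 0.15, 0.20 and 0.13 for the 8439 genes well above background on all arrays. In TBI and in MASM + TBI, 8 of 8 members had an SD above that median, and in control 7 of 8. Averaged over the members after each was scaled to mean 0 and SD 1 across the 10 rats, the level was -0.65, -1.17 and -0.80 in control, -1.07, 0.45 and 0.61 in TBI and 1.10, -0.10, 1.42 and 0.22 in MASM + TBI. By this measure the TBI rat 1 was among the controls, and the MASM + TBI rats 1 and 3 were the highest of the 10. The MASM + TBI rat 3 was hybridised on the slide of the controls, and within that slide it exceeded the control mean by 1.57 for Hmgcs1, 1.87 for Idi1, 1.18 for Fdps, 0.79 for Fdft1, 1.94 for Sqle, 1.90 for Lss, 1.31 for Cyp51 and 2.03 for Insig1, lying above each control for 8 of 8. These are also the estimates with slide as a fixed block, which sets this 1 rat against 3 controls and so says little about whether the difference exceeds the spread between rats.

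**Figure D3:**
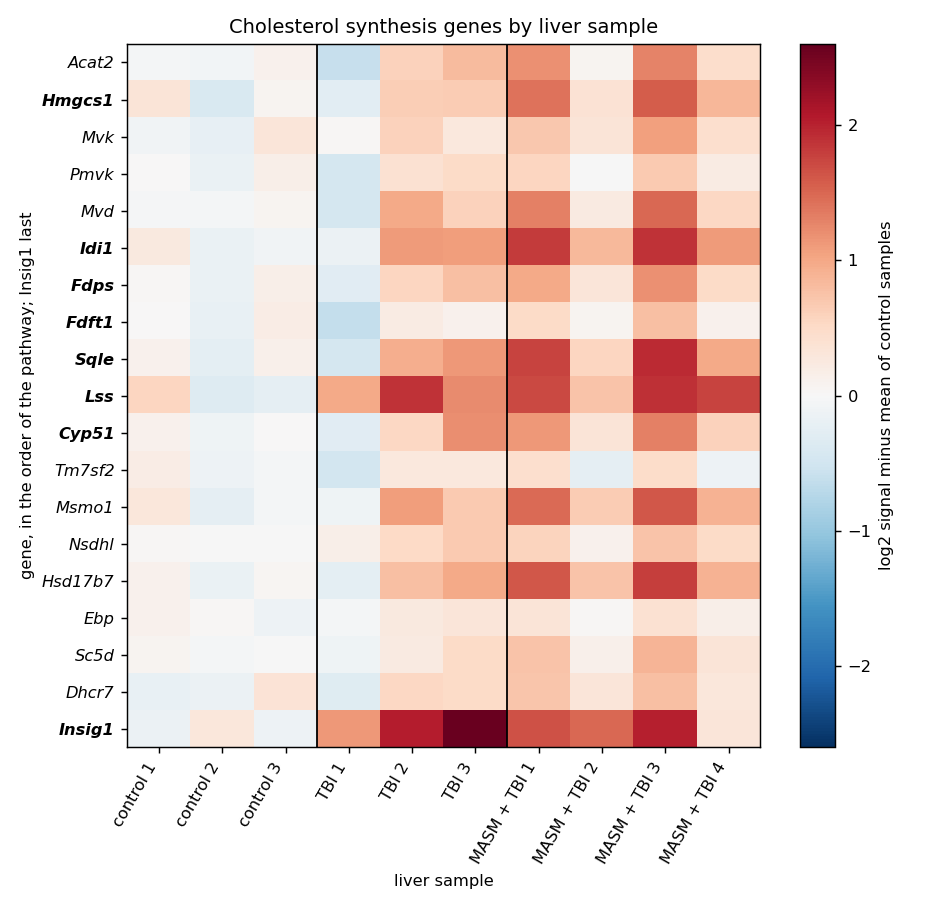
Log2 signal minus the mean of the 3 control livers (colour) for 19 genes (rows; the 8 genes described here in bold) in 10 livers (columns). Values run from -0.62 to 2.58; the columns of MASM + TBI 1 and MASM + TBI 3 are the reddest for most enzymes, and that of TBI 1 is near or below 0 for most.

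Pearson's r of each member with the mean of the other 7 over the 10 rats, which share groups and slides and are given as a description, was 0.99 for Sqle, 0.98 for Idi1 and Fdps, 0.95 for Hmgcs1 and Cyp51, 0.79 for Fdft1, 0.77 for Lss and 0.63 for Insig1. Lss and Insig1 were thus the least like the rest, and they were also the members with the widest differences in TBI. Outside the lists, the rule for likeness named Tmem199 (r = 0.93), Eif3h, a subunit of a translation initiation factor (r = 0.92), and Rdh11, a retinol dehydrogenase (r = 0.92), over 10 rats and among 8357 candidate genes.

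The other synthesis enzymes, 12 of 13 of which were measured, differed from control in the same direction. All 12 had a positive difference in each comparison, and 0 of 12 passed the test in any. At an unadjusted p under 0.05 in limma, 6 were higher with MASM + TBI, 2 with TBI and 0 between the irradiated groups. Over all genes these shares were 9.04, 12.6 and 7.11%. The median was 0.58 in MASM + TBI against control, 0.28 in TBI against control and 0.33 in MASM + TBI against TBI. For Nsdhl, Pmvk, Ebp and Tm7sf2, the TBI rats 2 and 3 each lay above the MASM + TBI mean. Their positive difference from TBI thus rested on the TBI rat 1. Hsd17b7, which encodes a sterol ketone reductase of the pathway, had a difference of 1.27 (adjusted p = 0.102) with MASM + TBI and 0.51 (adjusted p = 0.455) with TBI. Msmo1, the methylsterol oxidase that acts after Cyp51, had 1.17 (adjusted p = 0.105) and 0.55 (adjusted p = 0.388). Mvd, mevalonate diphosphate decarboxylase, had 0.89 (adjusted p = 0.303) and 0.38 (adjusted p = 0.624). With 1 rat left out, the differences with TBI ran from 0.27 to 0.88 for Hsd17b7, 0.28 to 0.87 for Msmo1 and 0.07 to 0.80 for Mvd, the upper ends without the TBI rat 1 and the lower ends without the TBI rat 3 for Hsd17b7 and the TBI rat 2 for the other pair.

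Of 8 measured genes of the SREBP pathway, 1 passed the test. Tmem97, a sterol-responsive membrane protein that binds NPC1, had a log2 signal of 12.21, 12.22 and 12.37 in control, 12.83, 13.14 and 12.87 in TBI and 13.05, 12.68, 13.08 and 12.99 in MASM + TBI. Both irradiated groups lay above control and overlapped each other. Tmem97 rose by 0.68 with TBI (95% CI 0.38 to 0.98, adjusted p = 0.0251) and by 0.68 with MASM + TBI (95% CI 0.40 to 0.96, adjusted p = 0.0268). With 1 rat left out, the adjusted p ran from 0.0168 to 0.0734 with TBI, passing in 6 of 10 fits, and from 0.0169 to 0.0958 with MASM + TBI, passing in 4 of 10. The rats without which the call was lost were, for TBI, each of the controls and the TBI rat 2, and for MASM + TBI, each of the controls and the MASM + TBI rats 1, 3 and 4. With slide as a fixed block, which leaves 1 MASM + TBI rat, rat 3, against the controls, the difference of Tmem97 was 0.81 (adjusted p = 0.115). Srebf2, the gene of SREBP-2, differed from control by -0.05 (adjusted p = 0.855) with TBI and 0.09 (adjusted p = 0.811) with MASM + TBI, with control values of 7.76 to 7.91. Insig2, the paralogue of Insig1, was 11.17 to 11.81 in control, 11.91 to 12.13 in TBI and 11.03 to 11.96 in MASM + TBI, with differences from control of 0.52 (adjusted p = 0.234) and -0.08 (adjusted p = 0.98). The median of the list was 0.16 with TBI and 0.23 with MASM + TBI.

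Uptake of lipoproteins was covered by 9 measured genes of 10. Lrp1, the gene of a remnant receptor of hepatocytes, rose with TBI: its log2 signal was 9.91, 10.05 and 10.13 in control, 10.69, 10.55 and 10.56 in TBI and 10.16, 10.39, 10.41 and 10.10 in MASM + TBI, a difference of 0.57 with TBI (95% CI 0.32 to 0.83, adjusted p = 0.026). With MASM + TBI it was 0.23 (adjusted p = 0.304). The call in TBI was lost without any 1 of the controls or without the TBI rat 1 or 2 (adjusted p up to 0.0768), and the dimmer probe gave 0.26 (adjusted p = 0.563). The other 8 genes did not pass the test in any comparison, and the median of the list was 0.15 with TBI and 0.05 with MASM + TBI. The isoprenoid branch that leaves the pathway after Fdps had 4 measured genes of 5, of which 0 passed in limma, 0 also at an unadjusted p under 0.05, with medians of 0.08 in both.

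Of 12 genes of cholesterol use and export, Abcg8, a subunit of the transporter that secretes cholesterol into bile, fell with TBI by 1.23 (95% CI -1.86 to -0.60, adjusted p = 0.0408) and was higher in MASM + TBI than in TBI by 1.77 (adjusted p = 0.0176). The log2 signal of Abcg8 was 5.67, 5.68 and 5.31 in control, 4.37, 4.36 and 4.24 in TBI and 6.47, 5.37, 6.03 and 6.48 in MASM + TBI. The TBI rats were below all others. With the normexp background, which here adds an offset of 50 to every signal, the same differences were -0.25 (adjusted p = 0.212) and 0.45 (adjusted p = 0.0754). The offset by itself shrinks the differences of a probe as dim as this one, so these values cannot show whether the background matters. The fall was lost without any 1 of 7 rats, the controls, the TBI rats and the MASM + TBI rat 3 (adjusted p up to 0.108). The higher level in MASM + TBI was lost without the TBI rat 2 (adjusted p = 0.0524) or the MASM + TBI rat 1 (adjusted p = 0.0523). The other probe of Abcg8 was near the floor of the array in all but 1 rat, and with the mean of both probes the differences were -0.61 (adjusted p = 0.28) and 1.17 (adjusted p = 0.132), so that neither passed. Cyp7a1, the rate-limiting enzyme of bile acid synthesis, had differences from control of 0.61 (adjusted p = 0.335) with TBI and 1.07 (adjusted p = 0.133) with MASM + TBI, and its 4 MASM + TBI rats, at 11.90 to 12.80, were above the controls, at 10.91 to 11.85. With 1 rat left out, its difference ran from 0.36 to 0.86 with TBI and from 0.86 to 1.33 with MASM + TBI. The median of the list was 0.03 with TBI and 0.05 with MASM + TBI.

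Fatty acid synthesis, driven largely by the related factor SREBP-1c, had 9 measured genes of 11, of which 1 passed the test with TBI and 2 with MASM + TBI. Gpam, which encodes the acyltransferase that begins glycerolipid synthesis, rose by 1.52 with TBI (adjusted p = 0.00139) and by 1.59 with MASM + TBI (adjusted p = 0.00101). Its log2 signal was 6.78, 6.56 and 6.98 in control, 8.33, 8.41 and 8.14 in TBI and 8.46, 8.40, 8.12 and 8.48 in MASM + TBI, so that its spread within groups was small and the calls held in 10 of 10 fits with 1 rat left out. With the normexp background and its offset, which by itself shrinks the differences of dimmer probes, those of Gpam were 0.88 and 0.90. Both passed the test (adjusted p = 0.000659 and 0.000354). Scd, the stearoyl-CoA desaturase, fell with MASM + TBI by 3.67 (95% CI -5.30 to -2.04, adjusted p = 0.0355). The log2 signal of Scd was 14.19, 11.76 and 13.14 in control, 10.31, 9.36 and 12.04 in TBI and 9.48, 9.12, 9.96 and 8.88 in MASM + TBI. The controls themselves differed by over 2, and the fall was called in 3 of 10 fits with 1 rat left out, being lost without the control rats 1 or 3, the TBI rat 1 or any 1 of the MASM + TBI rats (adjusted p up to 0.119). With slide as a fixed block, which again rests on the MASM + TBI rat 3 alone, it was -3.08 (adjusted p = 0.329). With TBI the difference of Scd was -2.46 (adjusted p = 0.102). That difference passed the test without the TBI rat 3 (-3.20, adjusted p = 0.0387) and with slide as a random block (-2.55, adjusted p = 0.0267). Fasn, fatty acid synthase, had differences of 0.32 (adjusted p = 0.643) with TBI and 0.45 (adjusted p = 0.613) with MASM + TBI. With 1 rat left out these ran from 0.05 to 0.60 and from 0.17 to 0.72, respectively. The median of the list was -0.26 with TBI and 0.05 with MASM + TBI.

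**Figure D4:**
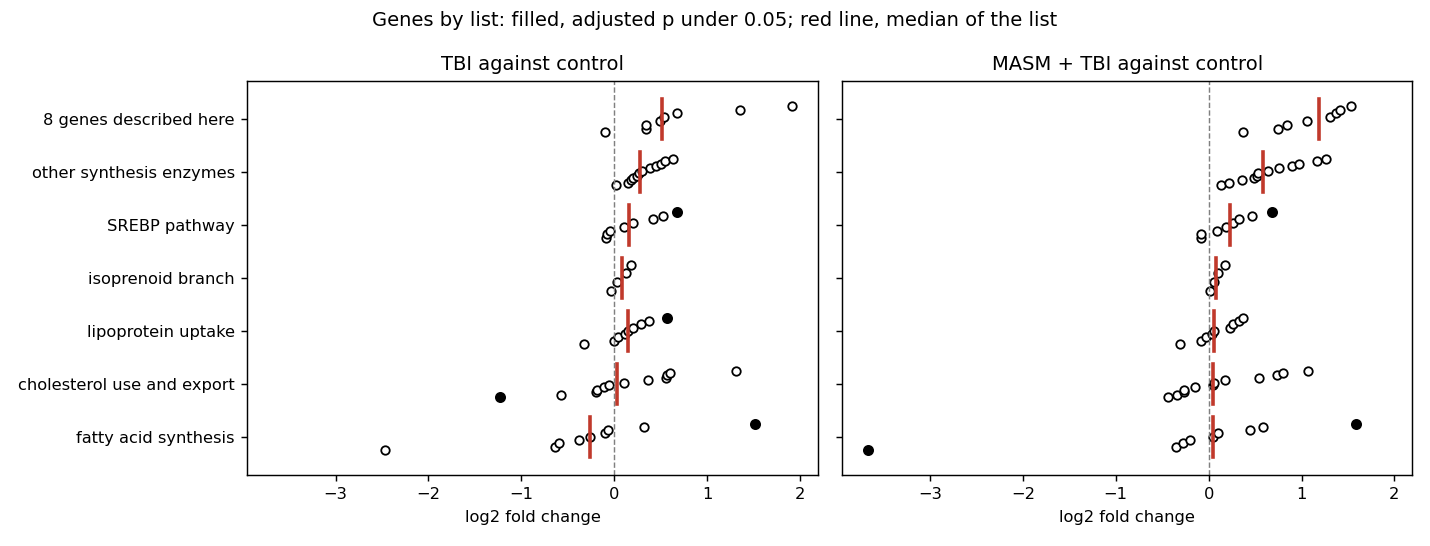
Log2 fold change (horizontal axis) of each measured gene in 7 lists (rows) with TBI and with MASM + TBI, both against control; filled points have an adjusted p under 0.05 and red lines mark medians. The 8 genes described here have the highest median in both panels, 0.51 and 1.18, with no filled point.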

How the data were processed

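The deposited scanner files of 10 one-colour arrays hold spot intensity values that the authors extracted with Agilent Feature Extraction 10.7 (10.7.3.1 per the file headers), background-subtracted and not normalized between arrays. The deposited value table held the same scanner values, not log2 transformed and without normalization, with a largest difference of 0. Here control spots and flagged outlier spots (76 to 112 per array) were left out, log2 intensities were quantile normalized, as in the methods of the study, and the spots of a probe were averaged. Of 41012 probes, 40945 had a value on all arrays and 16950 matched a symbol through RefSeq accessions (13426 genes). A gene was represented by its brightest probe. The 3 group means were estimated together in limma 3.58.1 (R 4.3.3), leaving 7 residual degrees of freedom, with Benjamini-Hochberg adjustment over all probes and a threshold of 0.05. The number of arrays limits the precision.

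The members and lists were chosen with earlier results of these data known. Values are given for the 8 members, for list genes past the threshold and up to 4 others a list, and for the 5 genes outside the lists that were most like the mean member level, of which 2 are not reported here; some genes of the pathway, of LDL uptake and of the marker lists are likewise not reported here. The fit was tested on simulated data. Alternatives changed the scaling, background, filter, fitted groups, test, prior, blocks, probe and call rule, or left out each rat in turn. Replicate numbers did not pair the rats. Promoters came from RefSeq (GRCr8), with motifs searched by exact letters in Python 3.11.15.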

Additional observations from a re-analysis of the deposited data

Results flagged for a closer look

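Lss in the MASM + TBI rat 2 stood apart from the other 3 rats of its group: its log2 signal was 9.51 and the next was 10.50, a gap that made up 0.852 of the range of the group, above the 95% critical value of Dixon's test for 4 samples. The test was run on 21 genes in this group and 1 passed, and chance gives such a value in about 1 of 20 groups tested. Without that rat the difference of Lss from control was 1.79 (adjusted p = 0.0337) in place of 1.53 (adjusted p = 0.0623).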

How the results depend on the processing

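Of 488 values of the 8 members under the alternatives, 464 kept their direction and did not pass, 21 passed and 3 turned sign. No member passed the test as reported, so none could lose a call. Of 793 values of the other named genes, 719 kept direction and call, 55 lost their call, 3 gained one and 16 turned sign. The causes were not tested. From 0 members called in TBI against control and 0 in MASM + TBI against control, the counts became 2 and 0 with scaling to the 75th percentile, 1 and 0 with normexp, 2 and 2 without dim probes, 1 and 1 with a trended and robust prior, 2 and 2 with slide as a random block (estimated correlation -0.13), 1 and 1 with the mean of all probes, and 0 to 1 in each with 1 rat left out; they were 2 and 7 under the study's rule, and also with unadjusted p alone or with that rule applied to the methods' t-test, alternatives chosen after seeing the data. MASM + TBI against TBI stayed at 0 under each. Scaling to the 75th percentile moved the share of calls that were higher over all genes from 44.8 to 31.4% in TBI against control and from 35.9 to 73.0% in MASM + TBI against TBI, with the median of all genes within 0.1. The genes called over the whole array went from 890 to 2221 in TBI against control and from 145 to 1388 in MASM + TBI against TBI with that scaling, and from 497 to 787 in MASM + TBI against control with normexp. After adjustment, the methods' t-test in its unequal-variance form left 5, 1 and 17 in these comparisons, in the same order. With the replicate number as a block, 1 member (Insig1, adjusted p = 0.0493) was called in TBI against control and 0 in the other comparisons, and calls were lost for Tmem97 (adjusted p = 0.0908 with TBI and 0.147 with MASM + TBI), Lrp1 (0.0683 with TBI), Abcg8 (0.0747 with TBI and 0.11 in MASM + TBI against TBI) and Scd (0.0783 with MASM + TBI); same-numbered rats did not deviate together (r from -0.13 to 0.17 over 9 pairs, 1 above 0.1).

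Values that turned sign had not passed the test. Insig2 in MASM + TBI against control was 0.0129 with the 75th percentile and 0.0036 with the random block; Tmem97 in MASM + TBI against TBI was -0.013 with the replicate block and -0.0078 with the random block. With 1 rat left out, the range was -0.26 to 0.0578 for Insig2 in MASM + TBI against control, -0.26 to 0.16 for Fdft1 and -0.15 to 0.0775 for Srebf2 in TBI against control, and, in MASM + TBI against TBI, -0.0233 to 0.43 for Lss, -0.035 to 0.72 for Cyp51, -0.0562 to 0.10 for Tmem97, -0.0969 to 0.30 for Fasn and -0.0032 to 0.15 for Gpam. The methods' t-test in its unequal-variance form, a choice made here, called none of the named genes after adjustment, Gpam included (adjusted p = 0.191 with TBI and 0.0951 with MASM + TBI). The equal-variance form was not tested. A model with only the 2 groups compared lost Tmem97 (adjusted p = 0.0581) and Lrp1 (0.0578) in TBI against control and Abcg8 (0.0629) in MASM + TBI against TBI.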
